A study of Mus musculus with 12 samples.

Results

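The genes described here are the tumour suppressor p53 (Trp53) and 9 of its known target genes, Mdm2, Ccng1, Plk2, Bax, Sesn1, Zmat3, Trp53inp1, Btg2 and Phlda3. They were found by symbol in the array's annotation, among probe sets that carry exactly 1 gene symbol. Of the 10 genes named, 8 were measured, each by 1 probe set, out of 19938 genes on the array. Trp53 and Bax had no probe set of this kind and were not analysed here, so what follows concerns p53 targets and not p53 itself.

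p53 is a transcription factor that is held at a low level by the ubiquitin ligase Mdm2, which is itself a p53 target, and that accumulates after DNA damage and other stresses. Its targets arrest the cell cycle, repair DNA, restrain growth signalling or start apoptosis. Several of them also answer to other inputs: Plk2 was first described as a serum-inducible kinase, Btg2 as an early gene induced by growth factors and phorbol ester, and sestrins are induced by FoxO factors when growth factor signalling is low. Serum also drives immediate early genes and feedback inhibitors of the kinase ERK, and these give growth-linked genes to set beside Plk2 and Btg2.

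The data are 12 Affymetrix arrays of RNA of MIN6, a line of insulin-producing cells from a mouse insulinoma. The line came from mice with SV40 large T antigen under the insulin promoter, and large T antigen binds p53, which limits MIN6 as a model of p53 function. Cells were plated at 50000 per well and received siRNA at 2 µM, either against the transcriptional repressor Hes3 or scrambled, and RNA was taken 12 to 24 hours later. DC (Defined Conditions) had no serum and 5% oxygen, and CC (Classic Conditions) had serum and 20% oxygen. There were 4 DC arrays labelled Hes3 siRNA (numbers 1, 2, 5 and 7), 4 DC scrambled arrays (1 to 4), 2 CC arrays labelled Hes3 siRNA and 2 CC scrambled arrays. DC and CC differ in serum and in oxygen together, and the effects of these 2 changes cannot be told apart. The labels describe repeats from a single experiment, so p-values measure the spread between these samples, which may be technical.

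The Hes3 probe set was not lower where Hes3 siRNA was labelled. Its log2 signal was 7.25 to 7.38 on the DC arrays labelled Hes3 siRNA, against 7.10 to 7.24 on the DC scrambled arrays (log2 fold change 0.15 ± 0.0767, SE; limma adjusted p = 0.114). In CC it was 7.22 to 7.23 on the arrays labelled Hes3 siRNA, against 6.82 to 7.23 on the scrambled arrays (0.20 ± 0.109; limma adjusted p = 1). Groups are therefore called by their labels. Beta cell markers fitted the label, with 11 of 12 above the 90th percentile of genes by mean signal. The exception was the glucose transporter Slc2a2, at the 39.4th percentile. Of 9 fibroblast, 6 acinar, 4 duct and 8 macrophage and endothelial markers 0 reached the 90th percentile, while the alpha cell genes Gcg and Ttr did. All DC arrays labelled Hes3 siRNA had higher medians and smaller SDs over genes than every other array (highest median 7.905, smallest SD 1.821 elsewhere). Within that group arrays 1 and 5 lay at the far end, with medians of 7.956 and 7.944 and SDs of 1.764 and 1.776. Arrays 2 and 7 had medians of 7.910 and 7.935 and SDs of 1.804 and 1.797. Counts that rest on arrays 1 and 5 are also given without them, though arrays 2 and 7, which remain, share the direction of the shift.

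The first question was what the serum-free, low-oxygen culture did to p53 targets, and most of them were lower in it. On the arrays labelled Hes3 siRNA, 5 of the 8 genes fell in DC against CC (Plk2, Mdm2, Ccng1, Trp53inp1 and Zmat3) and 0 rose, where 18.8% of all genes fell and 21.2% rose (40.1% in all; limma, Benjamini-Hochberg adjusted p under 0.05 over 19938 genes). The median log2 fold change was -0.70 over the 8 genes and 0.09 over all genes. Without DC arrays 1 and 5 the same 5 genes fell, with a median of -0.58 over the 8, and 2463 of all 19938 genes fell. On the scrambled arrays 6 of the 8 fell in DC against CC, the same 5 and Btg2, 1 rose (Sesn1) and Phlda3 did not pass the test. There 5.45% of all genes fell and 3.09% rose (8.54% in all), and the medians were -0.52 for the 8 genes and 0.02 for all genes. Those 2 comparisons share no array. Genes that fell in both were 5 of the 8 p53 targets, and 959 of all genes (4.81%). None of the 8 rose in both, as 1.84% of all genes did.

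The share of genes that fell depended on signal level. With all genes in 4 equal parts by mean signal, 0.943%, 5.3%, 24.6% and 44.5% fell in DC with the Hes3 siRNA label in order of rising signal, with medians of 0.154, 0.192, -0.0252 and -0.192. On scrambled arrays the shares were 0.482%, 2.23%, 7.2% and 11.9%. Mdm2, Ccng1, Trp53inp1 and Btg2 lie in the brightest part, Sesn1, Zmat3 and Phlda3 in the part below it, and Plk2 in the second dimmest, so the share over all genes understates the background of most of them. Markers of another cell type moved with culture too. Of 4 alpha cell markers, Gcg (glucagon) and Ttr (transthyretin) fell with either label. Gcg gave -1.051 ± 0.116 with the Hes3 siRNA label (SE; limma adjusted p = 1.5e-05) and -0.93 ± 0.116 on scrambled arrays (limma adjusted p = 0.000112), and Ttr gave -0.69 and -0.81 in that order. Irx1 and Irx2 rose with the Hes3 siRNA label as deposited, though not both under any other scaling. The mean log2 signal of the 4 was 10.1 to 10.19 in DC with Hes3 siRNA and 9.92 to 10.05 in DC scrambled, against 10.41 to 10.46 in CC with Hes3 siRNA and 10.42 to 10.45 in CC scrambled. The part of these markers and of signal level in the fall of the p53 targets was not tested.

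**Figure D1:**
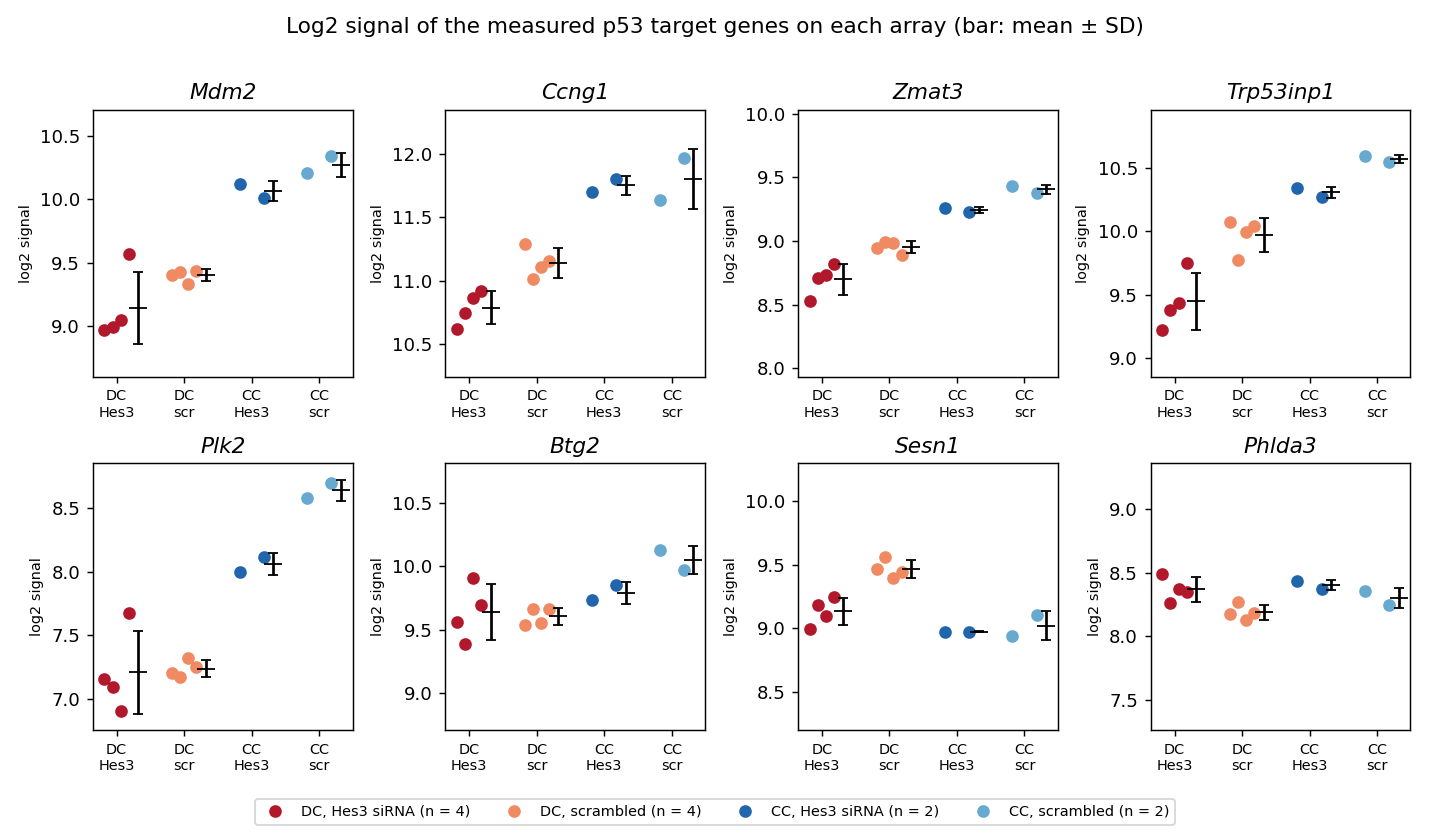
Each point is the log2 signal of a p53 target on 1 array, with the group mean and SD as a bar, and all panels span the same number of log2 units. Mdm2, Ccng1, Zmat3, Trp53inp1 and Plk2 sit lower on every DC array than on every CC array, and Sesn1 on the DC scrambled arrays (9.39 to 9.56) lies above all CC arrays.

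Mdm2, the ligase that marks p53 for degradation, showed the separation on every array. Its log2 signal was 8.97, 9.0, 9.05 and 9.57 on DC arrays 1, 2, 5 and 7 labelled Hes3 siRNA, and 9.40, 9.43, 9.34 and 9.44 on the DC scrambled arrays. The CC arrays read 10.12 and 10.01 for those labelled Hes3 siRNA and 10.21 and 10.34 for scrambled. All 8 DC arrays thus lay below all 4 CC arrays. The log2 fold change of DC against CC was -0.92 ± 0.128 on the arrays labelled Hes3 siRNA (SE; limma adjusted p = 0.000105), which is 1.89-fold lower. It was -0.87 ± 0.128 on the scrambled arrays (limma adjusted p = 0.000414), or 1.83-fold lower, so the siRNA labels gave nearly the same size of difference.

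Ccng1 encodes cyclin G1, a p53 target that brings the phosphatase PP2A to Mdm2. It read 10.62, 10.75, 10.86 and 10.92 on the DC arrays labelled Hes3 siRNA and 11.29, 11.01, 11.11 and 11.16 on the DC scrambled arrays. On CC arrays it read 11.70 and 11.80 with the Hes3 siRNA label and 11.63 and 11.97 with scrambled. No DC array reached a CC array, and the DC groups did not overlap with each other. The log2 fold change of DC against CC was -0.96 ± 0.105 on the arrays labelled Hes3 siRNA (SE; limma adjusted p = 1.29e-05) and -0.66 ± 0.105 on the scrambled arrays (limma adjusted p = 0.000809).

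A p53 response element is a pair of 10-base sequences of a degenerate pattern, each here called a p53 decamer. Both strands of the 250 bases before each RefSeq start (GRCm38.p6) were searched for it. It stood in the windows of Mdm2, Ccng1 and a start of Sesn1, and in 7.13% of all 32851 windows of this length. The windows of Mdm2 and Ccng1 are shown because these genes are the classic targets that fell on every DC array. Capitals mark the decamers, at bases 186 to 177 before the Mdm2 start and 185 to 176 before the Ccng1 start. In Mdm2 they also mark GTAAACA, a FoxO motif at bases 153 to 147 that 3.17% of windows hold. The Mdm2 window lies at chr10:117710759-117711008 and the Ccng1 window at chr11:40755287-40755536, both on the minus strand, written 5′ to 3′ in the direction of the gene. The known p53-responsive promoter of Mdm2 lies in its first intron, outside the window, and a match of letters is a description and not a bound site.
Mdm2: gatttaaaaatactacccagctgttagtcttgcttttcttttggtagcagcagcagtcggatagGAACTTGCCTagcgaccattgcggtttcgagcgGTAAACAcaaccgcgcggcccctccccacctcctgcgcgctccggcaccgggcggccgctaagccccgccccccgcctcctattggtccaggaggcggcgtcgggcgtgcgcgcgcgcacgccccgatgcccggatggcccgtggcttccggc
Ccng1: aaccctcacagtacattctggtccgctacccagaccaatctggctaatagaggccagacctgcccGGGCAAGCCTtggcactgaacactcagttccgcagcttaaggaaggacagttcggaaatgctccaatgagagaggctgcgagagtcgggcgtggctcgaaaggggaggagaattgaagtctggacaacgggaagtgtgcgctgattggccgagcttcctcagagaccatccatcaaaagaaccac

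Trp53inp1, a stress-induced nuclear protein that promotes p53 phosphorylation and autophagy, gave a similar order of groups. It read 9.22, 9.38, 9.43 and 9.75 on the DC arrays labelled Hes3 siRNA and 10.07, 9.78, 9.99 and 10.04 on the DC scrambled arrays. CC arrays read 10.34 and 10.27 with the Hes3 siRNA label and 10.59 and 10.55 with scrambled. The 4 groups did not overlap at any point, and DC with Hes3 siRNA was the lowest of them. DC against CC gave -0.86 ± 0.116 on the arrays labelled Hes3 siRNA (SE; limma adjusted p = 8.41e-05) and -0.60 ± 0.116 on the scrambled arrays (limma adjusted p = 0.00362).

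Zmat3, a zinc finger protein that binds RNA and acts in p53-dependent growth control, had the same order over a narrower range. It read 8.53, 8.71, 8.73 and 8.82 on the DC arrays labelled Hes3 siRNA, 8.95, 9.0, 8.99 and 8.89 on DC scrambled, 9.26 and 9.23 on CC labelled Hes3 siRNA, and 9.43 and 9.38 on CC scrambled. Its 4 groups did not overlap either. DC against CC gave -0.55 ± 0.0788 on the arrays labelled Hes3 siRNA (SE; limma adjusted p = 0.000141) and -0.45 ± 0.0788 on the scrambled arrays (limma adjusted p = 0.0016).

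Plk2, a polo-like kinase of centriole duplication, had the largest fall of the 8 genes on scrambled arrays, and 10 of all 19938 genes had a lower log2 fold change there. It read 7.15, 7.09, 6.90 and 7.67 on the DC arrays labelled Hes3 siRNA and 7.20, 7.17, 7.32 and 7.25 on the DC scrambled arrays. The CC arrays read 8.0 and 8.12 with the Hes3 siRNA label and 8.58 and 8.70 with scrambled. The DC groups overlapped, with array 7 the highest of them, while the CC groups did not. DC against CC gave -0.85 ± 0.143 on the arrays labelled Hes3 siRNA (SE; limma adjusted p = 0.000509), or 1.81-fold lower, and -1.41 ± 0.143 on the scrambled arrays (limma adjusted p = 1.78e-05), or 2.65-fold lower. The mean signal of Plk2 stood among all genes at the 26.9th percentile in DC with Hes3 siRNA and the 31.3rd in DC scrambled, against the 49.5th in CC with Hes3 siRNA and the 60.9th in CC scrambled. No detection calls were analysed here, and how far DC signals lie above background is unknown.

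Btg2, an antiproliferative protein that recruits the CCR4-NOT deadenylase, passed the test in only 1 of the culture comparisons. It read 9.56, 9.39, 9.91 and 9.69 on the DC arrays labelled Hes3 siRNA, 9.54, 9.66, 9.55 and 9.67 on DC scrambled, 9.73 and 9.85 on CC labelled Hes3 siRNA, and 10.13 and 9.97 on CC scrambled. The DC and CC arrays labelled Hes3 siRNA overlapped, through DC array 5, and the scrambled ones did not. DC against CC gave -0.15 ± 0.110 on the arrays labelled Hes3 siRNA (SE; limma adjusted p = 0.254, 95% interval -0.39 to 0.08) and -0.45 ± 0.110 on the scrambled arrays (limma adjusted p = 0.0175). Without CC scrambled array 1 the Btg2 call on scrambled arrays was lost (-0.37, limma adjusted p = 0.103).

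The windows of Plk2 and Btg2 held no p53 decamer. Only exact matches within the 250 bases before the start were sought. A p53 element elsewhere, or one that departs from the pattern, would not be found. The Plk2 and Btg2 windows each held the palindrome TGACGTCA, the cyclic AMP response element bound by CREB and ATF factors, which 508 of the 32851 windows hold (1.55%). They are shown because both genes are known to answer to growth factors. Capitals mark the palindrome, at bases 62 to 55 before the Plk2 start and 166 to 159 before the Btg2 start. The Plk2 window is chr13:110394794-110395043 on the plus strand and the Btg2 window chr1:134079156-134079405 on the minus strand (RefSeq, GRCm38.p6). The CArG box of serum response factor (1.47% of windows), TGANTCA of AP-1 (6.75%) and TTTGAA, the CHR element of cell cycle genes (16% of windows), matched no window of the measured targets.
Plk2: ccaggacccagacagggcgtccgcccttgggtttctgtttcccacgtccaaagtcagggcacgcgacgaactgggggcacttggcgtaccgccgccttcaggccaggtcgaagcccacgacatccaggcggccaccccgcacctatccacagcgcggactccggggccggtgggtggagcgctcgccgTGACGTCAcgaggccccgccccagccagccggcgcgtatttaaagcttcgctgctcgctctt
Btg2: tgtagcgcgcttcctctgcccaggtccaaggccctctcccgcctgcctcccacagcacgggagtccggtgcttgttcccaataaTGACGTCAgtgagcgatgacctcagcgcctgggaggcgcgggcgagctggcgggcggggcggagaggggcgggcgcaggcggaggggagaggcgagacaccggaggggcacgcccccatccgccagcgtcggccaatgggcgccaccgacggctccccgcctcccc

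Sesn1, a sestrin that restrains mTORC1 signalling, went the other way. It read 9.0, 9.19, 9.10 and 9.25 on the DC arrays labelled Hes3 siRNA, 9.47, 9.56, 9.39 and 9.44 on DC scrambled, 8.97 and 8.97 on CC labelled Hes3 siRNA, and 8.94 and 9.10 on CC scrambled. Every DC scrambled array lay above every other array. DC against CC gave 0.16 ± 0.0819 on the arrays labelled Hes3 siRNA (SE; limma adjusted p = 0.12) and 0.44 ± 0.0819 on the scrambled arrays (limma adjusted p = 0.00238), where 251 of 19938 genes had a higher value. The difference with the Hes3 siRNA label passed the test after quantile normalization (0.23, limma adjusted p = 0.0289) and cyclic loess (0.22, limma adjusted p = 0.0283). RefSeq gives Sesn1 2 starts, and the window of the second, shown for the gene that rose, holds a p53 decamer in capitals at bases 173 to 164 (chr10:41887189-41887438, plus strand, GRCm38.p6), while the first holds none of the motifs searched.
Sesn1, second start: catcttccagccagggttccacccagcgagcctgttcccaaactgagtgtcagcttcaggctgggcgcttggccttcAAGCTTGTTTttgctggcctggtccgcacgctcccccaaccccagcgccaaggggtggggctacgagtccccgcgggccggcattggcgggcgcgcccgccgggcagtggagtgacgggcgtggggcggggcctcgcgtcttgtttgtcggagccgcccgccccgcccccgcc

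Phlda3, a pleckstrin homology protein that competes with Akt for membrane lipids and restrains Akt in islet cells, differed least between cultures. Its log2 signal was 8.26 to 8.49 in DC with Hes3 siRNA and 8.13 to 8.27 in DC scrambled, against 8.37 to 8.43 in CC with Hes3 siRNA and 8.24 to 8.36 in CC scrambled. The DC and CC ranges overlapped with either label. DC against CC gave -0.04 ± 0.0767 on the arrays labelled Hes3 siRNA (95% interval -0.20 to 0.13, limma adjusted p = 0.711) and -0.11 ± 0.0767 on the scrambled arrays (-0.28 to 0.05, limma adjusted p = 0.491). Its window held none of the motifs, and RefSeq's table gave windows for 6 of the 8 measured genes.

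**Figure D2:**
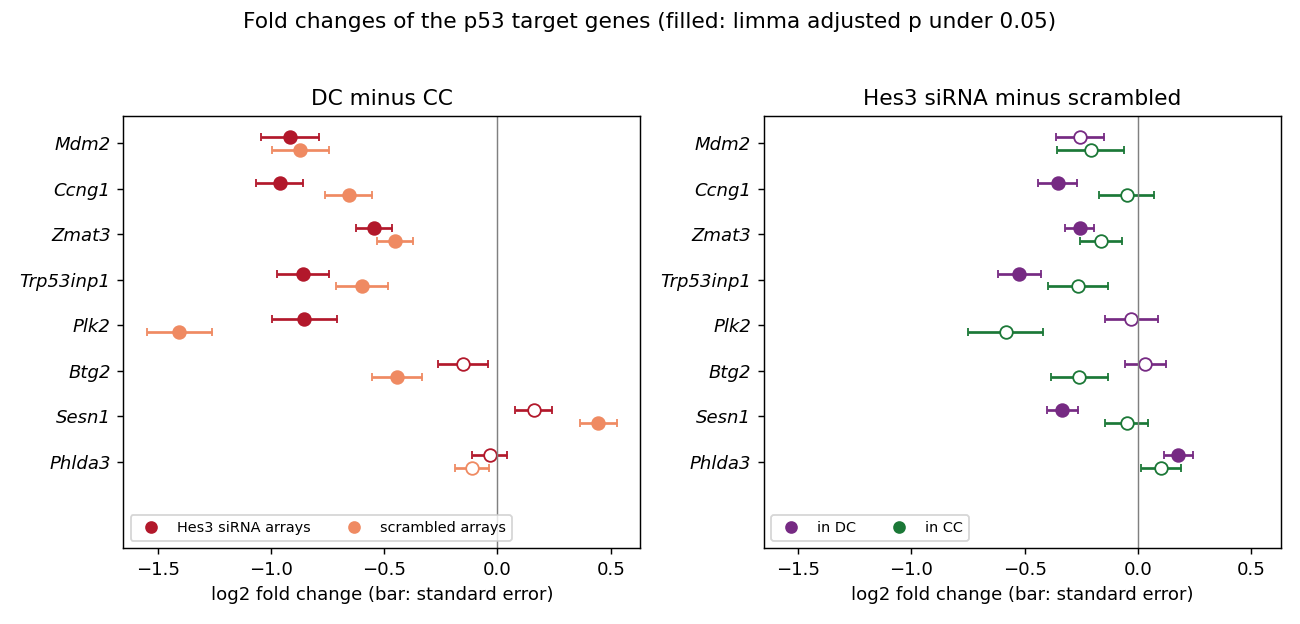
Log2 fold changes of the 8 genes with their standard errors, DC minus CC on the left and Hes3 siRNA minus scrambled on the right, filled where the limma adjusted p is under 0.05. The 5 genes at the top of the left panel are filled in both culture comparisons, and no point is filled for the siRNA labels in CC.

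The fall of 5 genes in both culture comparisons was also seen under 3 other scalings of the arrays. Centring the arrays on their median moved the median of all genes by -0.111 on the arrays labelled Hes3 siRNA. Relative to the median of all genes, Mdm2, Ccng1, Zmat3, Trp53inp1 and Plk2 lay at or below -0.52 there under the deposited scale, quantile normalization, median centring and cyclic loess. On the scrambled arrays they lay at or below -0.41, with Plk2 as low as -1.44. Arrays of the groups did not overlap for 6 of the 8 genes with the Hes3 siRNA label (61.8% of all genes) and for 7 of the 8 on scrambled arrays (27.9% of all genes).

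Further p53 targets were taken from a list of known ones, which does not include the p53 target Cdkn1a. Of 36 further targets measured, 11 fell and 2 rose (Fas and Dram1) in DC with the Hes3 siRNA label (median -0.07), and 11 fell and 1 rose (Gadd45a) on the scrambled arrays (median -0.17). Over all genes 18.8% fell and 21.2% rose with the Hes3 siRNA label, and 5.45% fell and 3.09% rose on scrambled arrays. In both comparisons 7 of the 36 fell, and 4.81% of all genes: Ephx1, Nupr1, Plk3, Rps27l, Polk, Ak1 and Ddit4l were the 7. Ephx1, a microsomal epoxide hydrolase, had log2 fold changes of -1.45 ± 0.123 with the Hes3 siRNA label (SE; limma adjusted p = 2.01e-06) and -1.22 ± 0.123 on scrambled arrays (limma adjusted p = 1.58e-05). Plk3, a stress-responsive paralog of Plk2, gave -0.98 and -0.88, and Nupr1, a stress-induced chromatin protein, gave -0.91 and -0.94 in that order. Rps27l, a p53-induced ribosomal protein paralog, gave -0.95 and -0.54. The rises of Fas and Dram1 did not pass under any of the 3 other scalings, and the fall of Ak1 with the Hes3 siRNA label did not pass after quantile normalization (limma adjusted p = 0.0582). The DNA damage gene Gadd45a gave 0.19 ± 0.101 (limma adjusted p = 0.131) with the Hes3 siRNA label and 0.44 ± 0.101 (limma adjusted p = 0.011) on scrambled arrays.

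**Figure D3:**
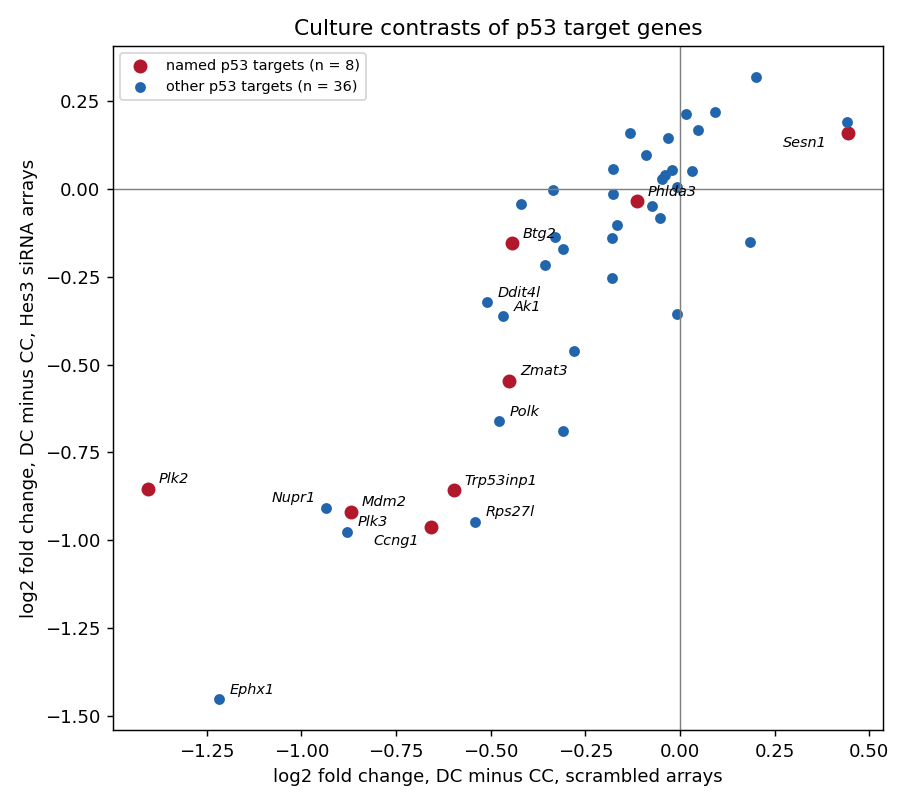
Log2 fold change of DC minus CC on scrambled arrays (x axis) and on arrays labelled Hes3 siRNA (y axis) for the 8 named p53 targets in red and 36 further targets in blue. Labelled points other than Btg2, Sesn1 and Phlda3 are genes that fell in both comparisons, among them 5 of the 8 and 7 of the 36. Of all genes 4.81% fell in both.

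Genes of mitochondrial apoptosis were counted beside the same shares. Of 17 genes of the Bcl2 family and its caspase pathway, 2 fell (Mcl1 and Cycs) and 2 rose (Bid and Casp9) with the Hes3 siRNA label, and Mcl1 alone fell on scrambled arrays, against 40.1% and 8.54% of all genes that passed in either direction. With that label 2 fell and 1 rose without DC arrays 1 and 5, against 2463 and 1168 of all 19938 genes. The Bid call was lost under all 3 other scalings and the Casp9 call after median centring. The survival factor Mcl1 gave -0.87 ± 0.117 with the Hes3 siRNA label (SE; limma adjusted p = 7.64e-05) and -0.50 ± 0.117 on scrambled arrays (limma adjusted p = 0.012). The BH3-only p53 target Bbc3 (Puma) gave 0.06 and -0.18 in that order, and neither passed the test (limma adjusted p = 0.597 and 0.298).

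Regulators of p53 moved in both directions. Of 18 measured, 5 fell and 1 rose (Crebbp) in DC with the Hes3 siRNA label (median 0.003), and 1 fell (Chek1) and 3 rose (Atm, Crebbp and Ep300) on scrambled arrays (median 0.15). Among all genes 18.8% fell and 21.2% rose with the Hes3 siRNA label, and 5.45% fell and 3.09% rose on scrambled arrays. With the Hes3 siRNA label the scaling mattered: 5 fell and 0 rose after median centring (median -0.11), but 6 fell and 4 rose after quantile normalization and after cyclic loess (medians 0.07 and 0.05). Leaving out DC arrays 1 and 5, 5 fell and 2 rose, against 2463 and 1168 of all 19938 genes. The damage kinase Atm gave 0.23 ± 0.093 (limma adjusted p = 0.0622) with the Hes3 siRNA label and 0.39 ± 0.093 (SE; limma adjusted p = 0.015) on scrambled arrays. The checkpoint kinase Chek1 gave -0.56 and -0.35 in that order, both past the test. The phosphatase Ppm1d and the ubiquitin ligase Rchy1, both also p53 targets, gave -0.54 and -0.68 with the Hes3 siRNA label (limma adjusted p = 0.000137 and 0.000634), and -0.20 and -0.36 on scrambled arrays (limma adjusted p = 0.157 and 0.073).

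Paralogs of the 10 genes named, Trp53 and Bax included, did not all go in the same direction. On scrambled arrays Btg1 (0.47 ± 0.107), Sesn3 (0.44 ± 0.104) and the mitotic kinase Plk1 (0.41 ± 0.0969) rose in DC, and Plk3 and Trp53inp2 (-0.32 ± 0.0741) fell, 5 of 22 paralogs measured. Of all genes 8.54% passed there in either direction. Btg1 thus had the opposite direction to Btg2, and Sesn3 the direction of Sesn1. After median centring the Sesn3 call was lost (0.40, limma adjusted p = 0.0507). On arrays labelled Hes3 siRNA, 6 of 22 fell and 3 rose (Zmat4, Btg4 and Plk5), of which Zmat4 and Plk5 did not pass under any other scaling. Among all genes 18.8% fell and 21.2% rose. Of the 22, 4 fell and 1 rose without DC arrays 1 and 5, against 2463 and 1168 of all 19938 genes. On all arrays labelled Hes3 siRNA, Sesn2, a p53 and ATF4 target, fell by 0.69 on the log2 scale (SE 0.105; limma adjusted p = 0.00022), and on scrambled arrays its value was -0.31 (limma adjusted p = 0.0859).

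Plk2 and Btg2 can also be read beside genes that follow serum and growth factors. As deposited, feedback inhibitors and targets of ERK had the largest share of falls of the growth-linked lists. In DC 9 of 12 fell with the Hes3 siRNA label (median -0.40) and 5 of 12 on scrambled arrays (median -0.30), and 0 rose in either. After median centring S phase genes had the larger share with the Hes3 siRNA label, 18 of 21 against 9 of 12. The shares of all genes that fell were 18.8% with the Hes3 siRNA label and 5.45% on scrambled arrays. Of the 12, 5 fell in both (Dusp6, Etv5, Dusp5, Spry4 and Etv4), where 4.81% of all genes did. The ERK phosphatase Dusp6 read 8.45, 8.44, 8.06 and 8.54 on the DC arrays labelled Hes3 siRNA and 8.48, 8.74, 8.80 and 8.65 on DC scrambled. CC arrays read 10.23 and 10.65 with the Hes3 siRNA label and 10.32 and 10.68 with scrambled. No DC array came near a CC array. Its log2 fold changes were -2.07 ± 0.143 with the Hes3 siRNA label (SE; limma adjusted p = 3.75e-07) and -1.84 ± 0.143 on scrambled arrays (limma adjusted p = 1.82e-06). Dusp6, like Plk2, was thus lower in DC with either label.

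Immediate early genes fell in part. Of 32, 10 fell and 3 rose (Ccn2, Klf2 and Egr3) in DC with the Hes3 siRNA label (median -0.02), and 6 fell and 1 rose (Klf6) on scrambled arrays (median -0.09). Among all genes 18.8% fell and 21.2% rose with the Hes3 siRNA label, and 5.45% fell and 3.09% rose on scrambled arrays. Both comparisons shared 6 of the 32 that fell (Dusp1, Nr4a2, Jun, Fos, Fosb and Egr1), and 4.81% of all genes fell in both. Dusp1, a phosphatase of MAP kinases, gave -1.22 ± 0.104 with the Hes3 siRNA label (SE; limma adjusted p = 2.07e-06) and -0.86 ± 0.104 on scrambled arrays (limma adjusted p = 8.17e-05). Jun, a subunit of AP-1, gave -0.62 and -0.75 in that order, and Egr1 gave -0.26 and -0.35. The 3 rises with the Hes3 siRNA label did not pass under any of the other 3 scalings, and the Egr1 call there was lost after quantile normalization. So was the Fosb call in both comparisons (limma adjusted p = 0.0598 with the Hes3 siRNA label and 0.0783 on scrambled arrays).

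FoxO factors are active when insulin and growth factor signalling is low. A list of genes linked to them, with Foxo1 and Foxo3 themselves, was counted in the same way. Of 21, 5 fell and 3 rose in DC with the Hes3 siRNA label (median 0.05), and 2 fell and 4 rose on scrambled arrays (median 0.10). Over all genes 18.8% fell and 21.2% rose with the Hes3 siRNA label, and 5.45% fell and 3.09% rose on scrambled arrays. The receptor Igf1r gave -1.29 ± 0.173 with the Hes3 siRNA label (SE; limma adjusted p = 7.75e-05) and -1.39 ± 0.173 on scrambled arrays (limma adjusted p = 0.000107). Txnip, a glucose-induced inhibitor of thioredoxin, gave -1.18 and -1.04, and the repressor Bcl6 gave 0.25 and 0.49, each past the test. With the Hes3 siRNA label the Bcl6 call was lost under all 3 other scalings, and the list's median was -0.06 after median centring.

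Proliferation genes had medians below 0 in S phase, and of either sign in mitosis. Of 21 genes of S phase, 14 fell with the Hes3 siRNA label and 5 on scrambled arrays (Rrm2, Tyms, Cdc45, Cdc6 and Cdt1), and 0 rose. Of 23 mitosis genes, 11 fell and 0 rose with the Hes3 siRNA label (median -0.22), but 7 rose and 0 fell on scrambled arrays (median 0.22). For all genes the shares were 18.8% lower and 21.2% higher with the Hes3 siRNA label, and 5.45% lower and 3.09% higher on scrambled arrays. In the brightest of the 4 parts by signal, 44.5% fell and 9.15% rose with that label, and 11.9% fell and 6.92% rose on scrambled arrays. Both lists were bright, with mean log2 signals of 9.80 to 10.08 (mitosis) and 9.80 to 9.95 (S phase) in DC with Hes3 siRNA. The shares over all genes thus understate their background of falls. Kif23, a kinesin of cytokinesis, gave 0.20 ± 0.128 (limma adjusted p = 0.211) with the Hes3 siRNA label and 0.70 ± 0.128 (SE; limma adjusted p = 0.00232) on scrambled arrays. Under the other scalings 3 to 8 mitosis genes rose on scrambled arrays and 5 to 12 fell with the Hes3 siRNA label. Under the same scalings 10 to 18 S phase genes fell with that label, and 5 to 6 on scrambled arrays. The p53 targets and mitosis genes thus had medians of opposite sign on scrambled arrays. Without DC arrays 1 and 5, the falls with the Hes3 siRNA label were 7 of 12 in the ERK list, 10 of 32 immediate early genes, 4 of 21 FoxO targets, 12 of 21 in S phase, 4 of 23 in mitosis and 9 of the 36 further p53 targets. Among all 19938 genes 2463 fell there.

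**Figure D4:**
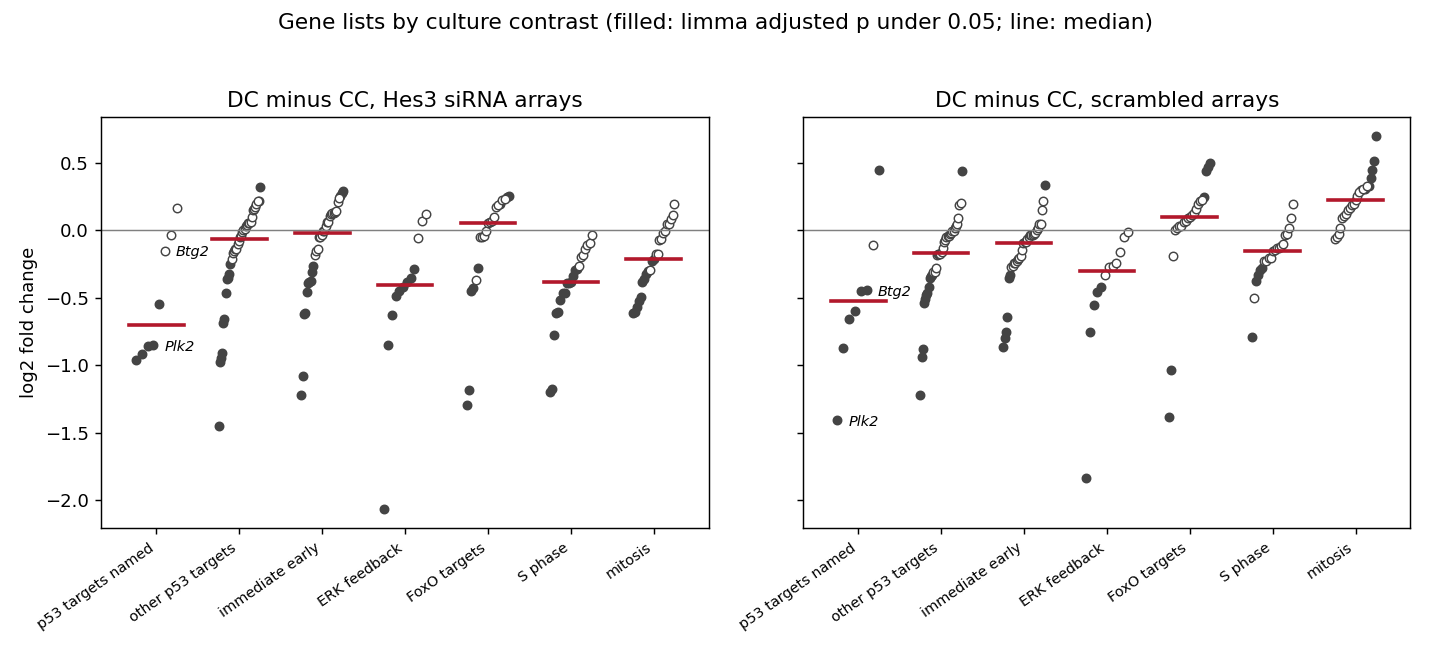
Each point is the log2 fold change of 1 gene, DC minus CC, with arrays labelled Hes3 siRNA on the left and scrambled arrays on the right. Filled points have a limma adjusted p under 0.05 and red lines are list medians, which for the named p53 targets (-0.70 and -0.52) are the lowest of the lists drawn.

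The genes whose pattern over the 12 arrays lay nearest to Plk2 and Btg2 were other genes in each case. Nearness was the root-mean-square difference of log2 signals after centring each gene on its mean. Signals were not scaled, so a gene of the same pattern but a larger or smaller change is not near. Predicted, clone, Rik, microRNA, snoRNA, olfactory and vomeronasal receptor symbols were left out. For Plk2, whose own SD over the arrays was 0.584, the nearest genes were Mfge8 (0.18), Abcb4 (0.196), Gsdma (0.196), Tll1 (0.204) and Mdm2 (0.206). Mdm2 was the only other p53 target named here among those 5, and no immediate early or ERK feedback gene was. For Btg2, whose own SD was 0.201, they were Pitpnm2 (0.0859), Slc3a1 (0.0896), Rfx2 (0.0943), Epb41l4b (0.0983) and Slc36a1 (0.0988), and none of these is on any list used here. The 12 arrays share groups and scaling, and nearness is a description that does not weigh p53 targets against growth-linked genes.

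The second question was what Hes3 siRNA did within each culture. In DC, 4 of the 8 genes fell with the Hes3 siRNA label against scrambled (Trp53inp1, Ccng1, Sesn1 and Zmat3) and 1 rose (Phlda3), where 18.3% of all genes fell and 28.9% rose (47.2% in all). These shares too depended on signal level. In the 4 equal parts of genes by rising signal, 1.2%, 6.2%, 24.7% and 40.9% fell, and 36.9%, 56.9%, 19.6% and 2.39% rose. Trp53inp1 and Ccng1 lie in the brightest part, and Sesn1, Zmat3 and Phlda3 in the part below it. The median was -0.26 over the 8 genes and 0.06 over all genes (-0.15 and 0.04 without DC arrays 1 and 5). This comparison uses the same DC arrays as the culture comparisons, so its values are not independent of them.

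Trp53inp1 had the largest difference in DC, -0.52 ± 0.0948 (SE; limma adjusted p = 0.00308). Ccng1 gave -0.35 ± 0.0858 (limma adjusted p = 0.00701), Sesn1 -0.33 ± 0.0668 (limma adjusted p = 0.00381) and Zmat3 -0.26 ± 0.0644 (limma adjusted p = 0.00798). The arrays of the 2 labels did not overlap for these 4 genes, nor for 40.9% of all genes. Phlda3 gave 0.18 ± 0.0626 (limma adjusted p = 0.0297) with overlapping arrays. Mdm2 gave -0.26 ± 0.104 (limma adjusted p = 0.0543), with array 7 above every scrambled array and arrays 1, 2 and 5 below every one. Plk2 (-0.03 ± 0.117, 95% interval -0.28 to 0.22) and Btg2 (0.03 ± 0.0899, -0.16 to 0.22) did not pass (limma adjusted p = 0.843 and 0.765).

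Calls in DC were lost when 2 arrays were left out together. Without DC arrays 1 and 5 labelled Hes3 siRNA, 0 of the 8 genes passed, as did 331 of all genes in place of 9408. The values kept their sign there for Trp53inp1 (-0.40, limma adjusted p = 0.0576), Sesn1 (-0.25, limma adjusted p = 0.0668), Ccng1 (-0.31, limma adjusted p = 0.0835) and Zmat3 (-0.19, limma adjusted p = 0.0936). Leaving out 1 array at a time gave 4 to 7 calls. Without array 7, Mdm2 passed (-0.40, limma adjusted p = 0.00118), and so did Plk2 (-0.19, limma adjusted p = 0.0437). With genes in 4 equal parts by mean signal, the median log2 fold change in DC was 0.146, 0.206, -0.0286 and -0.148 in order of rising signal. In the same comparison 7 of 9 fibroblast, 6 of 6 acinar, 3 of 4 duct and 4 of 8 macrophage and endothelial markers rose and none fell. Of all genes 28.9% rose, and in the 2 dimmest parts 36.9% and 56.9% did. The medians of these marker lists lay between the 22.4th and the 38.5th percentile of genes by mean signal. Under the other scalings 4 to 6 fibroblast, 2 to 3 acinar, 2 to 3 duct and 0 to 3 macrophage and endothelial markers rose. The mean log2 signal of the fibroblast markers was 7.62 to 7.85 on the DC arrays labelled Hes3 siRNA, against 7.42 to 7.53 on the DC scrambled arrays. Without DC arrays 1 and 5 labelled Hes3 siRNA none of these markers passed. Of the same markers 0 rose and 1 (Cd68) fell in DC against CC on scrambled arrays, while with the Hes3 siRNA label 3 of 9 fibroblast, 5 of 6 acinar, 1 of 4 duct and 3 of 8 macrophage and endothelial markers rose and Cd68 fell. Of all genes 21.2% rose and 18.8% fell in DC against CC with that label. Under the other scalings the rises with that label were 1 to 2 fibroblast, 0 to 1 acinar, 0 duct and 0 to 1 macrophage and endothelial markers. Their part in the differences of the p53 targets was not tested.

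**Figure D5:**
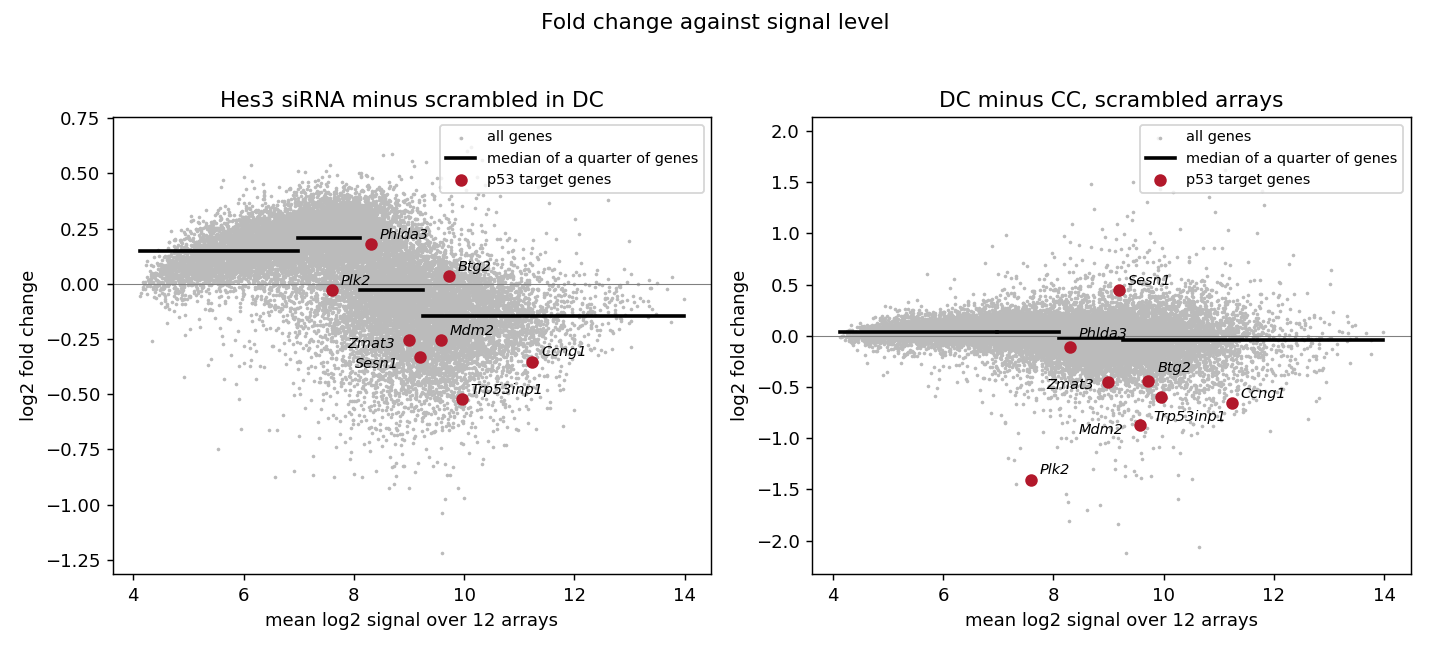
Log2 fold change of every gene (grey) against its mean log2 signal over 12 arrays, for the siRNA labels in DC on the left and for DC minus CC on scrambled arrays on the right, with medians of 4 equal parts of the genes as black lines. On the left the medians run between 0.206 and -0.148 and the p53 targets lie within the grey cloud, and on the right the medians stay within 0.05 of 0 while Plk2, at -1.41, lies at the lower edge of the cloud.

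Around the 8 genes in DC, 10 of 18 regulators fell with the Hes3 siRNA label and 0 rose (median -0.22), among them Rchy1, Atr, Atm and Chek1. The shares over all genes in this comparison were 18.3% lower and 28.9% higher. In the brightest of the 4 parts by signal 40.9% fell and 2.39% rose, and in the part below it 24.7% fell and 19.6% rose. The mean log2 signal of the regulators was 9.34 to 9.50 in DC with Hes3 siRNA and 9.61 to 9.66 in DC scrambled. The shares over all genes are thus not their background. Under the other scalings 5 to 13 regulators fell, and without DC arrays 1 and 5 none passed. Of the 36 further p53 targets 8 fell and 8 rose (median 0.03), but under the other scalings 5 to 10 fell and 1 to 4 rose (median -0.05 after centring). Without DC arrays 1 and 5, 2 of the 36 fell and 0 rose, so most of these calls rest on those arrays. Ephx1 gave -0.50 ± 0.100 (SE; limma adjusted p = 0.0038), Sesn2 -0.40 ± 0.0857 (limma adjusted p = 0.00482) and Gadd45a -0.36 ± 0.0826 (limma adjusted p = 0.0058). Perp, a p53 effector of apoptosis and a desmosome protein, gave 0.30 ± 0.0707 (limma adjusted p = 0.00626). Of 23 mitosis genes 20 fell and 0 rose (median -0.35), against 2 without DC arrays 1 and 5. Without those arrays 282 of all 19938 genes fell and 49 rose.

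In CC none of the 8 genes passed the test, as none of all 19938 genes did (0% called; limma), each with a limma adjusted p of 1. At an unadjusted p under 0.05, 1 of the 8 (Plk2) and 2.08% of all genes passed. Plk2 was lower on both arrays labelled Hes3 siRNA (-0.58 ± 0.166, SE, 95% interval -0.93 to -0.23), and 10 of all genes had a lower value. Btg2 gave -0.26 ± 0.127 (-0.53 to 0.01), Trp53inp1 -0.26 ± 0.134 and Mdm2 -0.21 ± 0.148. The 2 labels had separate ranges for 6 of the 8 genes and for 26.9% of all genes. The median was -0.18 over the 8 genes and 0.02 over all genes. With 2 arrays per label the intervals are wide.

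Whether the siRNA difference itself changed with culture was tested as an interaction, and none of the 8 genes passed, nor did any of all genes (0% called; 3471 genes had an unadjusted p under 0.05, among them Plk2 and Sesn1). Plk2 gave 0.55 ± 0.203 for the siRNA difference in DC minus that in CC (SE; limma adjusted p = 0.221), Btg2 0.29 ± 0.156 (limma adjusted p = 0.331), Sesn1 -0.28 ± 0.116 (limma adjusted p = 0.245) and Ccng1 -0.30 ± 0.149 (limma adjusted p = 0.3). Without DC arrays 1 and 5 none of the 8 genes passed either, and Plk2 gave 0.73 ± 0.182 (limma adjusted p = 0.401). The same numbers say whether the culture difference changed with the siRNA label. The larger fall of Plk2 on scrambled arrays than on arrays labelled Hes3 siRNA therefore did not pass the test.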

How the data were processed

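The authors deposited 1 value per probe set and array, and log2 is read from the values (3.94 to 14.4), since no label states the unit. Summarization, background correction and normalization are not given in the sources used here. All 12 columns were used. The platform annotation of 2016 gave 21789 of 35556 probe sets exactly 1 symbol, 1621 several and 12146 none, and the brightest by mean stood for each of 999 genes with several. Differences came from limma 3.58.1 in R 4.3.3 (lmFit, eBayes), 1 mean per group over 12 arrays, 8 residual degrees of freedom, two-sided p adjusted by Benjamini-Hochberg over 19938 genes, threshold 0.05, no dim filter, and were tested on simulated data. The number of arrays limits the precision. Members, lists (253 of 272 entries measured) and tests were chosen with earlier results of these data known. All 8 measured targets are named. From other lists up to 4 genes past the threshold with the largest change are named, or 2 as values. Other genes named were chosen after their values were seen. Promoter windows (250 bases before the start) are RefSeq's, GRCm38.p6. Alternatives were quantile, median-centred and cyclic loess scaling, a dim filter at the 40th percentile, eBayes with trend and robust, only the arrays compared, the mean of probe sets, a replicate block and arrays left out. Arrays of different groups share only the numbers 1 and 2, and no label ties them, so the numbers were not taken as pairs.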

Additional observations from a re-analysis of the deposited data

Results flagged for a closer look

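Mdm2 on DC array 7 labelled Hes3 siRNA lay far from the other 3 arrays of its group. Its log2 signal was 9.57 there, against 8.97 to 9.05 on arrays 1, 2 and 5, and the gap made up 0.867 of the group's range, above Dixon's 95% critical value for 4 samples. The 8 genes in the 2 groups of 4 arrays gave 16 such comparisons, and about 1 in 20 passes by chance. The same array was also the highest of its group for Plk2 (7.67), Trp53inp1 (9.75), Ccng1 (10.92), Zmat3 (8.82) and Sesn1 (9.25), none of which passed the same limit. The cause was not tested.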

How the results depend on the processing

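In the 21 alternatives, the count of p53 targets past the threshold was 4 to 6 of 8 for DC against CC with the Hes3 siRNA label, 6 to 7 on scrambled arrays and 0 for the siRNA labels in CC. It was 0 for the interaction in the 20 that allow one. Mdm2, Ccng1, Zmat3 and Trp53inp1 kept their fall in both culture comparisons in all 21, and Plk2 in the 20 that hold it (it falls under the dim filter). For the siRNA labels in DC the count of 5 became 3 with a replicate block and 0 without DC Hes3 arrays 1 and 5 together. Leaving out each array in turn gave 4 to 7 there, 5 for culture with the Hes3 siRNA label, 6 to 7 on scrambled arrays and 0 for the siRNA labels in CC and the interaction. The replicate block changed no culture call of the 8 genes. Deviations of same-numbered arrays correlated at -0.441 to 0.253 in the comparisons made, and at 0.411 and 0.536 between DC arrays labelled Hes3 siRNA and CC scrambled arrays. In DC the Phlda3 call was lost in 9 of 21 alternatives, and Mdm2 was called with a replicate block (-0.43, limma adjusted p = 0.0481), with median centring (-0.33, limma adjusted p = 0.0302) and without array 7. Plk2 and Btg2, uncalled in DC, changed sign in 3 and 4 alternatives. Over all genes, calls ranged over 331 to 10476 (as deposited 9408) for the siRNA labels in DC, 2357 to 9516 (as deposited 7986) for culture with the Hes3 siRNA label, 742 to 2364 (as deposited 1702) on scrambled arrays and 0 to 2056 (as deposited 0) for the interaction, 2056 without CC scrambled array 2. The share of calls that were higher was 61.3% in DC as deposited, 59% after quantile normalization, 36.7% centred and 39.4% after loess, and 53%, 40.7%, 17.3% and 36.5% for culture with the Hes3 siRNA label. Of the list genes called as deposited, only G6pc2 changed sign under a scaling, at 0.02 after cyclic loess in the culture comparison with the Hes3 siRNA label. The cause of these shifts was not tested.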
